A study of Mus musculus with 18 samples.

Results

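Neuromesodermal progenitors were taken from single-cell transcriptomes of mouse embryos at E8.5 as the cells that carried at least 1 unique molecular identifier (UMI, the tag that marks 1 captured RNA molecule) of each of Nkx1-2, T and Sox2 and no UMI of Tbx6 or Noto. They numbered 1885 of 105556 cells with at least 3000 mouse UMIs, over 18 libraries made from single embryos with 10x Genomics 3' v3 chemistry. The embryos were wild type (WT, 7 embryos) or homozygous mutants (KO) of 1 of the DNA methyltransferase genes, with 3 Dnmt1 KO, 4 Dnmt3a KO and 4 Dnmt3b KO libraries, all on the 129S4/SvJae background. The embryos came from heterozygous matings, so that each gene was absent from the whole embryo and not from these progenitors alone. Samples are named by genotype and by the number in their label. Fewer cells of a type and less RNA per cell cannot be told apart in levels summed over cells. The question asked here was how the number and the transcriptome of these progenitors differed between each KO and WT.

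Neuromesodermal progenitors lie in the caudal epiblast beside the node and later in the tail bud, and supply both the spinal cord and the paraxial mesoderm of the trunk and tail as the body axis grows. They are recognised by joint expression of Sox2, a transcription factor of neural and pluripotent cells, and T (Brachyury), a T-box factor of the primitive streak and mesoderm. Wnt and Fgf ligands keep them in the progenitor state, Cdx and Hox factors act in axial growth and positional identity, and retinoic acid from the somites promotes their exit towards the neural tube. Dnmt3a and Dnmt3b set new methyl groups on CpG dinucleotides, and Dnmt1 copies the existing pattern at each DNA replication.

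The members were chosen by the UMI counts of these 5 genes, so their levels in members are a description. Of 2734 cells with a UMI of all of Nkx1-2, T and Sox2, 835 also held Tbx6, a presomitic mesoderm factor, and 30 held Noto, a node and notochord factor. Inside the threshold, 68 members carried 1 UMI of each of the 3 genes and 846 carried at least 2 of each. Just outside it lay 1223 cells that lacked only Nkx1-2, 3534 that lacked only T and 827 that lacked only Sox2. T therefore limited the gate more often than its other genes. Erythroid cells, which should lack all 3 genes, gave the level of free RNA: 0.885% of 6669 erythroid cells held Nkx1-2, 1.68% held T and 2.37% held Sox2, against 11.2%, 11.4% and 24.3% of all cells kept, and 1 erythroid cell met the whole gate. The median depth was 7625 to 41208 UMIs per erythroid cell over the libraries, 7289 to 59422 per cell kept and 20102 to 69368 per member.

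Caudal genes that the gate did not use were found in most members. Cdx2 and Cdx4, caudal homeobox factors, were detected in 96.5% and 95.2% of members, Sp5, a Wnt target, in 85.6%, and Fgf8 in 85.5%. Among the other cells the share with Cdx4 was 7.22% to 24.7% over the 18 libraries, and the share with Fgf8 was 7.96% to 35.7%. Hba-x, an embryonic globin, was found in a median of 98.0% of members and 92.3% of the other cells of a library, so its presence in a cell does not mark an erythrocyte. Msgn1, which marks presomitic mesoderm, was found in 3 members. Foxa2 and Sox17, markers of floor plate or endoderm, were found in 8.17% and 6.0% of members, and Sox1, a neural tube marker, in 17.1%, with a range from 4.55% in Dnmt3b KO 1 to 43.4% in Dnmt3a KO 14. In WT embryos, the genes most raised in members over the rest of the same embryo were Epha5, an ephrin receptor (median log2 ratio 3.72, range 2.93 to 4.14 over 7 embryos), Nkx1-2 itself (3.46), Fgf17 (2.99), Cdx1 (2.75), Hoxc4 (2.74) and Wnt3a (2.69). Hoxc8, Hoxb9, Hoxb8, Hoxa7, Hoxc6, Cdx2, Cdx4, Evx1, Etv4, Lix1, Tlx2 and Fgf8 were also among the 20 highest.

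Some libraries stood apart before any comparison was made. Dnmt3b KO 1 and Dnmt3b KO 2 shared 7493 cell barcodes, 85.7% and 85.9% of the cells kept in each, whereas no other pair shared more than 33, and they were counted as 1 sample. Their 204 members hold 167 distinct barcodes, 37 of them in both, so that the totals over 18 libraries count these barcodes more than once. Of the 167, 164 were kept as cells in both libraries, so most met the gate in only 1 of them. A share over the joined counts of these barcodes was not taken, and the mean of the 2 shares may differ from it. WT 1 and WT 2 held 17.4% and 14.2% erythroid cells, and the Dnmt1 KO embryos at most 0.132%. RNA from Y-linked genes was present in 3 of 3 Dnmt1 KO, 4 of 4 Dnmt3a KO, 2 of 3 Dnmt3b KO and 1 of 7 WT embryos, so that genotype and sex were not balanced. A joint human and mouse reference underlay the counts of 4 libraries (WT 1, Dnmt3a KO 1, Dnmt3a KO 13, Dnmt3b KO 11). Dnmt3b KO 12 had been counted with a later release of Cell Ranger than the other libraries.

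The targeted genes were read first in the members. Levels are UMI counts summed over the members of an embryo and scaled to 1000000 counts (CPM), from 1798574 to 11882517 UMIs per library. Dnmt1 itself was at 21.5, 17.8 and 15.4 CPM in the 3 Dnmt1 KO embryos, against 118 to 146 in WT, so the groups did not overlap (log2 fold change -2.74 ± 0.15 SE, edgeR adjusted p = 2.2e-10). Dnmt3a lay at 8.41, 15, 13 and 13.4 CPM in Dnmt3a KO 13, 14, 1 and 2 and between 35.5 and 46.6 in WT (log2 fold change -1.70 ± 0.24, edgeR adjusted p = 0.0021). That call was lost without Dnmt3a KO 13 or 14, where the edgeR adjusted p reached 0.027. Dnmt3b did not check its own label: it lay at 82.8, 99.4 and 79.4 CPM in Dnmt3b KO 11, 12 and 1+2, within the WT range of 48.5 to 100. The deleted part of the gene is not given in the sources used here, and 3' counts outside it would not show the loss. Dnmt3a was at 10.3 CPM in the library labelled Dnmt3b KO 12 and 21.4 in Dnmt3b KO 11, against 38.6 in Dnmt3b KO 1+2, so that Dnmt3b KO 12 lay inside the range of the Dnmt3a KO embryos. In Dnmt1 KO, Dnmt3b was higher than in every WT embryo (150 ± 8.79 CPM, SD, n = 3, against 80.9 ± 19.4, n = 7), with a log2 fold change of 0.99 ± 0.15 that stopped short of the minimum of 1 set for a call (edgeR adjusted p = 0.00013).

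Progenitors formed a lower mean share of the cells in each KO than in WT, and no difference passed the test once adjusted over the 3 comparisons. In WT the share ranged from 1.15% in WT 2 to 4.08% in WT 4, with a median of 2.84%. The shares were 1.91%, 1.38% and 1.43% in Dnmt1 KO 1, 2 and 3. They were 1.38%, 1.88%, 0.942% and 1.01% in Dnmt3a KO 13, 14, 1 and 2. In Dnmt3b KO 11 and 12 they were 2.13% and 2.21%, and 1.01% and 1.33% in Dnmt3b KO 1 and 2, which were averaged. Every KO group overlapped WT, because WT 1 (1.4%) and WT 2 lay among the KO embryos. The difference in mean log2 share was -0.69 for Dnmt1 KO, -1.02 for Dnmt3a KO and -0.53 for Dnmt3b KO (exact two-sided permutation p = 0.15, 0.042 and 0.28, Benjamini-Hochberg adjusted p = 0.22, 0.13 and 0.28). With at least 2 UMIs of each gate gene, a choice made after seeing the data, it was -1.10, -1.26 and -1.20 (exact permutation adjusted p = 0.1 each), and the ratio to WT of Dnmt3b KO moved from 0.693 to 0.435.

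The share rose with depth, since more UMIs give more chances to find all 3 genes. With each cell thinned to 10000 UMIs the share fell to between 0.488% and 1.55% in WT, 0.278% and 0.369% in Dnmt1 KO, 0.381% and 0.740% in Dnmt3a KO and 0.649% and 0.820% in Dnmt3b KO. Every Dnmt1 KO embryo was then below every WT embryo (log2 difference -1.56, exact permutation p = 0.017, the smallest that 3 against 7 embryos allow, adjusted p = 0.05). The thinned levels of the other groups overlapped WT (adjusted p = 0.091 and 0.18 by the same exact test). This depth was chosen after seeing the data, and at 3000 UMIs the differences were -1.52, -1.06 and -0.93 in Dnmt1, Dnmt3a and Dnmt3b KO (exact permutation adjusted p = 0.05, 0.05 and 0.067), with a mean share in WT of 0.109%. The Dnmt1 KO embryos kept a mean of 0.28, 0.75 and 0.25 members at 3000 UMIs and 3.69, 9.41 and 4.23 at 10000, so these differences rest on few cells. Over cells with under 10% globin UMIs, which leaves out erythroid cells, no full-depth difference passed (-0.78, -1.0 and -0.54, exact permutation adjusted p = 0.17, 0.091 and 0.23). Among the gate genes, Nkx1-2 in members was at 74.5 to 135 CPM in Dnmt1 KO and 84.2 to 157 in WT, and T also overlapped. Sox2 did not, at 50.3, 66.7 and 41.7 CPM in Dnmt1 KO against 104 to 152 in WT. Less RNA of a gate gene per cell lowers the share at a fixed depth, as fewer progenitors would. The thinned shares therefore cannot tell a lower number of these cells from lower Sox2 RNA in them, which was not tested.

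**Figure D1:**
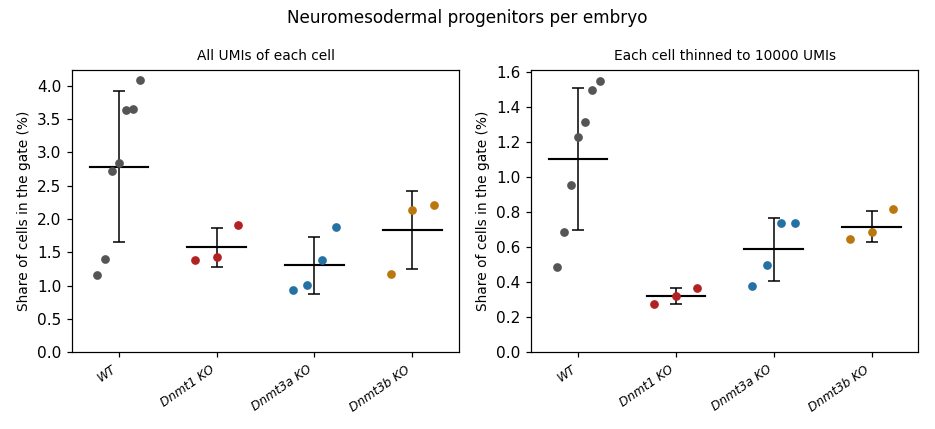
Share of cells in the progenitor gate for each embryo (percent of cells with at least 3000 UMIs on the left, of cells with at least 10000 UMIs thinned to that depth on the right). Points are embryos, with Dnmt3b KO 1 and 2 averaged, and the horizontal line and bar give the mean and SD. The 3 Dnmt1 KO embryos lie among the lower WT embryos on the left and below all 7 on the right, at 0.278% to 0.369%.

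Far more genes were called in the progenitors of Dnmt1 KO than in those of either other KO. Genes were called at an edgeR adjusted p under 0.01 and an absolute log2 fold change of at least 1. Of 11740 genes tested besides the gate genes, 426 (3.63%) were higher and 213 (1.81%) lower in Dnmt1 KO members, 5.44% in all. In Dnmt3a KO 3 (0.0256%) were higher and 2 (0.017%) lower, 0.0426% in all. In Dnmt3b KO 59 (0.503%) were higher and 1 (0.00852%) lower, 0.511% in all. The embryos of a KO did not overlap WT in 21.4%, 0.997% and 4.7% of genes in Dnmt1, Dnmt3a and Dnmt3b KO. The 3 comparisons share the 7 WT embryos. With the Y-linked level as a covariate edgeR called 547 genes in Dnmt1 KO, of which 408 were shared with the main fit. The study gave its Dnmt1 KO embryos, published CRISPR ones among them, a minor developmental delay. Stage and sex cannot be told apart from genotype in these counts. In Dnmt3b KO and Dnmt1 KO together, 56 genes were called in both. No housekeeping or cell cycle gene was called in any KO (0 of 20 and 0 of 17 tested, where 3672, 1017 and 1832 of all genes had an unadjusted p under 0.05 in Dnmt1, Dnmt3a and Dnmt3b KO).

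The progenitor identity genes were split in Dnmt1 KO. Of 16 regulators of these cells tested, 3 fell (1.81% of all genes did), none rose and 13 were not called. Their median log2 fold change was 0.14, beside -0.0013 over all genes. Cdx4, an X-linked caudal homeobox gene, was at 159, 167 and 90.3 CPM in Dnmt1 KO 1, 2 and 3. In WT it ranged from 255 to 417 CPM with a median of 371, so the groups did not overlap, as was true of 21.4% of all genes (log2 fold change -1.31 ± 0.23, edgeR adjusted p = 0.00048). Epha5, the gene most raised in WT members, fell from 292 ± 52.9 CPM (SD, n = 7) to 92.9 ± 41.5 (n = 3), and Hes3, a Notch pathway repressor kept on in neural stem cells, from 81.1 ± 16.5 to 33.0 ± 6.83. Cdx2, in contrast, was at 276 ± 57.3 CPM in WT and 268 ± 66.7 in Dnmt1 KO (edgeR adjusted p = 0.90). Cdx1 was at 388, 493 and 327 CPM in the 3 Dnmt1 KO embryos, above the highest WT value of 292, and just missed the call (log2 fold change 1.19 ± 0.31, edgeR adjusted p = 0.011).

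Among 21 Wnt and Fgf pathway genes tested in Dnmt1 KO members, 3 fell and 1 rose, beside 1.81% and 3.63% of all genes. Fgf8, a ligand that keeps caudal cells undifferentiated, was at 89.1, 97.3 and 57.4 CPM, against 175 to 390 with a median of 238 in WT (log2 fold change -1.68 ± 0.28, edgeR adjusted p = 0.00031). Every Dnmt1 KO embryo was below every WT embryo. Wnt8a, a ligand of the early streak, went the other way, with 69.5, 73.4 and 61.8 CPM against 3.78 to 26.3 in WT (log2 fold change 2.36 ± 0.42, edgeR adjusted p = 0.00065). Wnt3a, the main Wnt ligand of the tail bud, was at 10.6 ± 2.19 CPM against 20.9 ± 4.41 and was not called (log2 fold change -0.91, edgeR adjusted p = 0.044). Fgf17 and Fgf15 were called lower (-1.63 and -1.97), but Fgf17 lost its call without any of the 3 Dnmt1 KO embryos and Fgf15 without Dnmt1 KO 2 or 3, at edgeR adjusted p up to 0.040 and 0.012. In the retinoic acid pathway 1 of 10 genes was called, beside 5.44% of all genes in either direction. The summed level of that list was 508 to 588 CPM in Dnmt1 KO and 665 to 850 in WT. The called gene was Cyp26a1, which degrades retinoic acid. It was at 2.74, 4.45 and 17.5 CPM against 34.3 to 119 in WT (log2 fold change -2.66 ± 0.61), a call lost without Dnmt1 KO 1 or 2 (edgeR adjusted p up to 0.039).

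**Figure D2:**
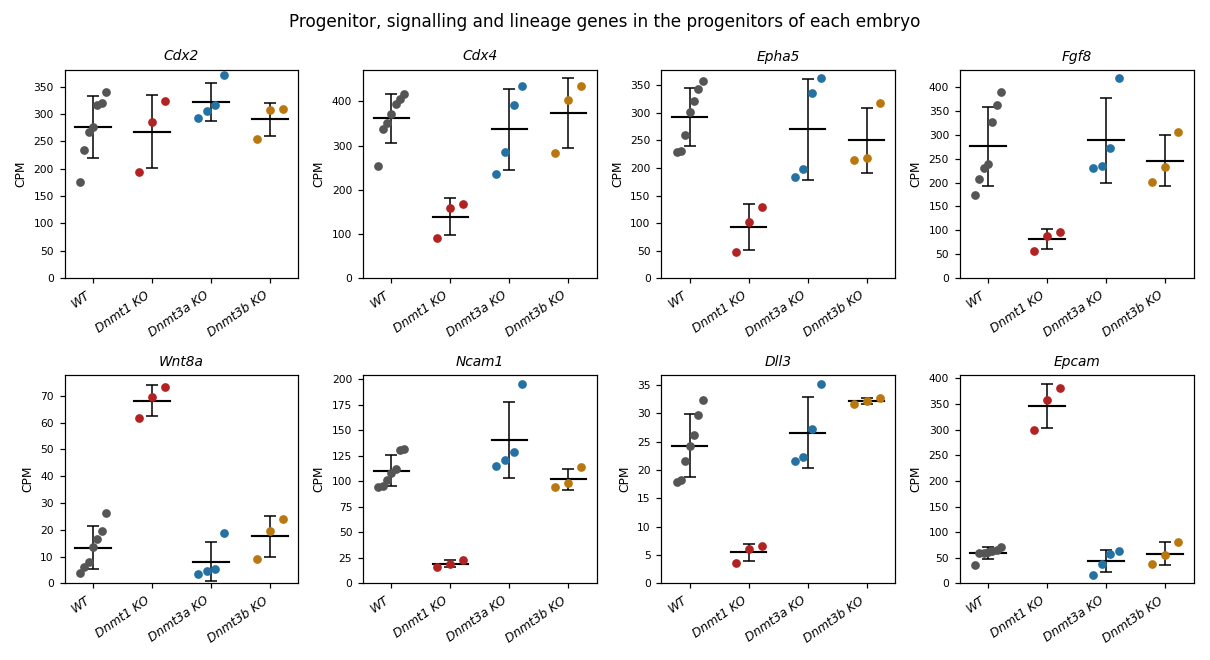
Level of 8 genes in the progenitors of each embryo, in CPM of the counts summed over its members, with 1 point per embryo and the mean and SD as a line and bar. Cdx4, Epha5, Fgf8, Ncam1 and Dll3 lie below all 7 WT embryos in the 3 Dnmt1 KO embryos, Wnt8a and Epcam lie above them, and Cdx2 overlaps.

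Hox genes, which give position along the body axis, were lower in Dnmt1 KO or not called. Of 39 listed genes 27 passed the low-count filter. In Dnmt1 KO 11 of these 27 fell (1.81% of all genes did), none rose and 16 were not called, with a median log2 fold change of -1.18. Hoxc9, Hoxc8, Hoxb9 and Hoxa9 had been singled out by the study on data that include these embryos and are not independent evidence of the direction. Hoxc8 was at 20.6, 15 and 4.39 CPM in Dnmt1 KO 1, 2 and 3. In WT it ranged from 177 to 381 with a median of 228, so every Dnmt1 KO embryo lay below every WT embryo (log2 fold change -4.27 ± 0.36, edgeR adjusted p = 1.9e-07). Hoxc6 fell from 61.3 ± 26.3 to 4.77 ± 3.11 CPM, Hoxc4 from 78.8 ± 18.9 to 10.0 ± 1.5 and Hoxc5 from 6.76 ± 2.05 to 0.581 ± 0.139. These 4 genes and Hoxc9 lie in the HoxC cluster on the plus strand of chromosome 15 (mm10), between 102967443 and 103036852. The annotated Hoxc5 (102967443 to 103017429) overlaps Hoxc9, Hoxc8 and Hoxc6, so its own count is uncertain.

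The fall was uneven along and between the clusters. Hoxa9 was at 4.11, 3.89 and 3.29 CPM in Dnmt1 KO and 36.6 to 196 in WT (log2 fold change -4.38 ± 0.82), Hoxa7 fell from 105 ± 30.6 to 30.8 ± 9.29 and Hoxb9 from 190 ± 17.5 to 67.8 ± 21.4 CPM. Hoxb8 stood at 179 ± 31.4 CPM in WT and 115 ± 31.5 in Dnmt1 KO without a call (edgeR adjusted p = 0.032). The anterior gene Hoxb1 was at 66.2 ± 10.3 and 64.1 ± 16.8 CPM (edgeR adjusted p = 0.91). WT embryos themselves varied in the posterior genes: Hoxc9 was at 138 CPM in WT 1 and 21.8 to 61.0 in the other 6. Its fall to 3.94 ± 2.65 CPM (log2 fold change -3.58 ± 0.72) lost its call without Dnmt1 KO 2 or 3, with an edgeR adjusted p up to 0.018. Hoxb3 lost its call without any Dnmt1 KO embryo (edgeR adjusted p up to 0.013), Hoxd1 without Dnmt1 KO 1 or 2 (0.022) and Hoxb6 without any Dnmt1 KO embryo or WT 2, 3, 6 or 7 (0.062). No Hox gene was called in Dnmt3a KO or Dnmt3b KO, with medians of 0.22 and -0.15. Hoxb9 in Dnmt3a KO was at 225, 320, 217 and 226 CPM against 163 to 220 in WT (log2 fold change 0.38 ± 0.14, edgeR adjusted p = 0.47).

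**Figure D3:**
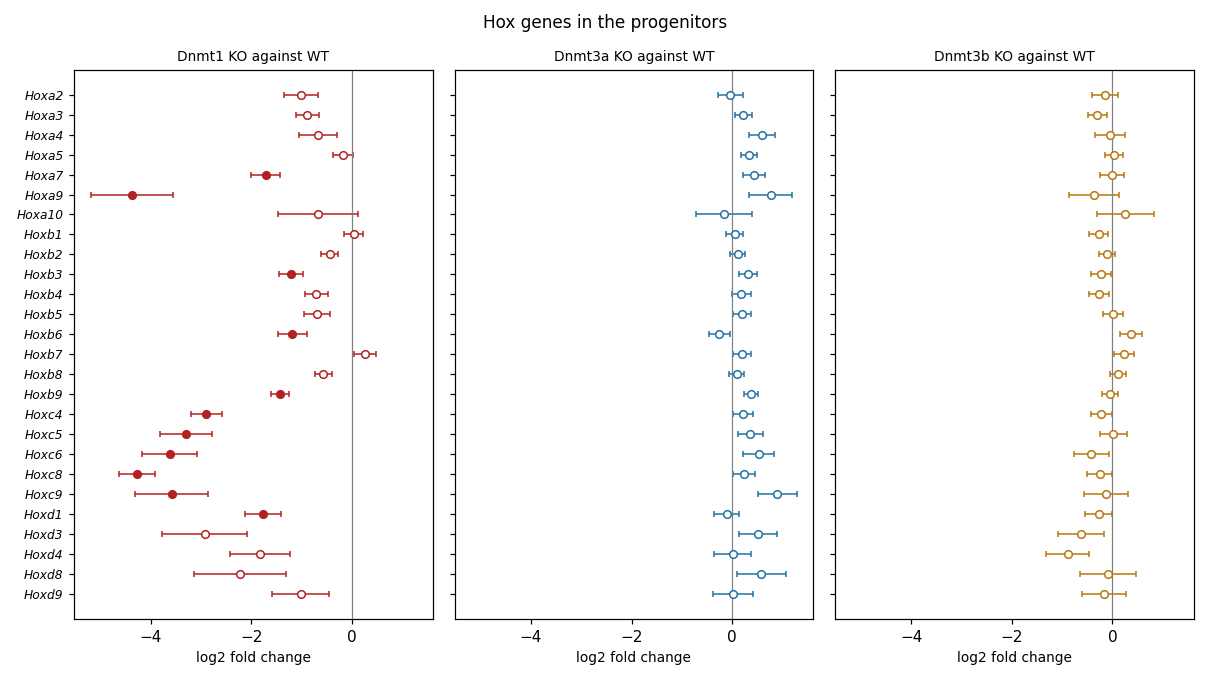
Log2 fold change of Hox genes in progenitors of each KO against WT, with SE bars, filled points for called genes and 1 shared horizontal axis. The 11 filled points are all in Dnmt1 KO and lie below 0, the lowest being Hoxa9 at -4.38 and Hoxc8 at -4.27.

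Some neural and presomitic genes were lower in Dnmt1 KO. Of 13 neural genes tested 6 fell (1.81% of all genes did), none rose and 7 were not called. The summed level of the list was 361.5 to 413.5 CPM in Dnmt1 KO against 511 to 700.1 in WT. Ncam1, a neural cell adhesion molecule, was at 16, 22.8 and 18.6 CPM against 94.1 to 132 in WT, with no overlap (log2 fold change -2.45 ± 0.19, edgeR adjusted p = 7.2e-08). Nkx6-1, a ventral neural tube factor, was at 0.914 CPM in Dnmt1 KO 1 and 0 in the other Dnmt1 KO embryos, against 2.13 to 10.01 in WT. With the Y-linked level as a covariate it lost its call (edgeR adjusted p = 0.015), as did Pax6, Sox1 and Hes7. Cdh2, or N-cadherin, fell from 116 ± 19 to 52.0 ± 6.38 CPM, and its log2 fold change of -1.06 passed above -1 without Dnmt1 KO 2, at -0.97. Pax6 (-3.83) and Sox1 (-2.67), both neural transcription factors, lost their calls without Dnmt1 KO 1 or 3, and Pax6 also without Dnmt1 KO 2, with edgeR adjusted p up to 0.028 and 0.040. Of 11 presomitic genes tested, Dll3 and Hes7 of the Notch segmentation clock fell, beside 1.81% of all genes. The summed level of the presomitic list was 58.9 to 81.9 CPM against 141.5 to 241.9 in WT, with no overlap. Dll3 was at 3.66, 6.12 and 6.58 CPM against 17.8 to 32.3 in WT (log2 fold change -2.02 ± 0.28, edgeR adjusted p = 5.0e-05). Hes7 (-1.5 ± 0.37, edgeR adjusted p = 0.0076) was not called in 8 of the 17 fits that each left out 1 sample, those without any Dnmt1 KO embryo, Dnmt3a KO 13, WT 1, WT 2, WT 5 or WT 6, where adjusted p reached 0.060. Among the genes with the largest falls were Foxd1, a forkhead factor, at 0, 0 and 0.366 CPM against 16.8 to 32.2, and Neurog2, a proneural factor with no UMI in any Dnmt1 KO embryo, at least 6.76-fold lower than in WT (144 UMIs, mean 3.35 CPM), on counts pooled over each group and a floor of 3 counts.

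Of 10 listed genes of pluripotency and the earlier epiblast, 7 passed the low-count filter, and in Dnmt1 KO 5 of these rose and 2 were not called. The study had named several of them on these embryos and published ones. Low genes among them such as Utf1 can pass that filter through the group where they are high, so the share of calls is not support for the list. Slc7a3, an arginine transporter, was at 24.7, 29.5 and 37.3 CPM against 0.709 to 7.24 in WT (log2 fold change 3.04 ± 0.34, edgeR adjusted p = 4.7e-06). Pim2, a kinase, rose from 5.19 ± 2.15 to 24.6 ± 7.07 CPM, L1td1, an RNA-binding protein, from 4.94 ± 2.81 to 35.8 ± 6.30, and Utf1, a chromatin factor of embryonic stem cells, from 1.03 ± 1.19 to 22.1 ± 16.8. Pou5f1, or Oct4, was at 156, 212 and 185 CPM against 1.89 to 88.5 in WT, where WT 7 was highest and WT 1 lowest. Its call (log2 fold change 2.66 ± 0.61, edgeR adjusted p = 0.0050) was lost without any of the 3 Dnmt1 KO embryos or WT 5, at adjusted p up to 0.024 by edgeR.

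Epcam, an epithelial adhesion molecule, was at 358, 381 and 299 CPM in Dnmt1 KO, against 35 to 71.2 in WT (log2 fold change 2.64 ± 0.28, edgeR adjusted p = 2.9e-06). Cdh1, or E-cadherin, was at 76.3, 80.1 and 62.1 against 3.78 to 13.8 CPM, while Cdh2 was lower as given above. Both genes were listed with Trh (59.7 ± 14.1 against 4.78 ± 4.11 CPM) as gut endoderm markers, a list of which 3 of 7 tested genes rose, beside 3.63% of all genes. The summed level of that list was 452 to 1031 CPM in Dnmt1 KO and 92.2 to 301 in WT. Sox17, a defining endoderm factor, was at 5.64 ± 9.76 CPM in Dnmt1 KO and 5.69 ± 4.62 in WT (edgeR adjusted p = 0.98), and was found in 2 of 29, 0 of 43 and 0 of 35 Dnmt1 KO members. Of 5 primordial germ cell markers tested, Kit, Ifitm3 and Dnd1 were called higher (log2 fold change 1.05, 1.26 and 2.37) and 2 were not called, beside 3.63% of all genes higher. Each of these 3 markers lost its call without any of the 3 Dnmt1 KO embryos, at edgeR adjusted p up to 0.053, 0.058 and 0.041. Kit lost it also without WT 1, 6 or 7, Ifitm3 without WT 1, 2, 3, 5 or 6, and Dnd1 without WT 1 to 6 or Dnmt3b KO 11.

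The markers of other cell types gave the following levels beside these differences. The 7 erythroid markers summed to 25 to 9278 CPM in WT members and 11.9 to 16.5 in Dnmt1 KO, and Hba-x and Hbb-bh1, both embryonic globins, were called lower. Those calls were lost without any 1 of the Dnmt1 KO embryos (edgeR adjusted p up to 0.026 and 0.028) and with doublets removed by Scrublet score. The globin level moved with the erythroid share of the embryo. The 6 cardiomyocyte markers summed to 11.5 to 511 CPM in WT and 15 to 44.6 in Dnmt1 KO, the 6 endothelial markers to 14 to 54.7 and 5.56 to 51.2, and the 6 yolk sac markers to 14.6 to 1215 and 10.6 to 96.4, with no gene called on these 3 lists. The extraembryonic ectoderm list had 2 of 9 genes called higher, beside 3.63% of all genes. They were Tfap2c (7.41 ± 2.89 to 25.1 ± 2.99 CPM, a call lost with the Y-linked covariate) and Xlr3a. The summed level of that list, 719 to 912 CPM, overlapped the 392 to 891 of WT. The part of these other cells in the results was not tested.

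Imprinted genes, which are expressed from 1 parental copy under the control of methylated regions, moved in both directions in Dnmt1 KO, with 6 of 34 tested higher, 4 lower and 24 not called. Over all genes 3.63% were higher and 1.81% lower. Grb10, a growth repressor, was at 2.74, 6.12 and 2.92 CPM, against 166 to 242 in WT (log2 fold change -5.64 ± 0.25, edgeR adjusted p = 2.3e-11). Cdkn1c, a cell cycle inhibitor, fell from 84.7 ± 28.8 to 2.94 ± 0.867 CPM. Igf2, a growth factor, had no UMI in Dnmt1 KO members and was at least 8.54-fold lower than in WT (182 UMIs, mean 3.86 CPM) on the same pooled counts. Its neighbour H19 was at 157 ± 46.0 CPM in WT and 225 ± 77.4 in Dnmt1 KO and was not called (edgeR adjusted p = 0.21). The paternally expressed Peg3 was at 890, 708 and 870 CPM against 95.4 to 215 in WT (log2 fold change 2.46 ± 0.24, edgeR adjusted p = 7.8e-07), and the neighbours Peg10 and Sgce rose by 1.99 ± 0.23 and 1.31 ± 0.15. Usp29, next to Peg3, rose from 7.49 ± 2.61 to 25.5 ± 7.03 CPM, a call lost with the Y-linked covariate (edgeR adjusted p = 0.044). No imprinted gene was called in Dnmt3a KO or Dnmt3b KO, where the list medians were 0.074 and -0.00014.

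Targets of p53, the factor that responds to DNA damage and other stress, were higher in Dnmt1 KO, with 7 of 11 called, beside 3.63% of all genes called higher. Phlda3 was at 367, 394 and 271 CPM against 14.4 to 83.6 in WT (log2 fold change 3.15 ± 0.48, edgeR adjusted p = 0.00013). Ccng1 rose from 14.6 ± 2.85 to 93.1 ± 11.6 CPM, Trp53inp1 from 1.93 ± 0.911 to 21.9 ± 1.14, and the cell cycle inhibitor Cdkn1a from 25.3 ± 6.79 to 95.0 ± 7.22. The other called targets were Eda2r, Perp and Sesn2, of which Sesn2 lost its call without Dnmt1 KO 1 (edgeR adjusted p = 0.039). In Dnmt3b KO none was called, and 1 embryo stood apart. Phlda3 was at 271 CPM in Dnmt3b KO 12, against 36.6 in Dnmt3b KO 11 and 26.6 in Dnmt3b KO 1+2. Ccng1 was at 108 CPM in Dnmt3b KO 12, against 15.5 and 23.9 (edgeR adjusted p = 0.018). Dnmt3b KO 12 thus lay at the Dnmt1 KO level for both genes, while the other Dnmt3b KO samples lay at or near the WT range. In Dnmt3a KO none was called and the median log2 fold change was -0.11.

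**Figure D4:**
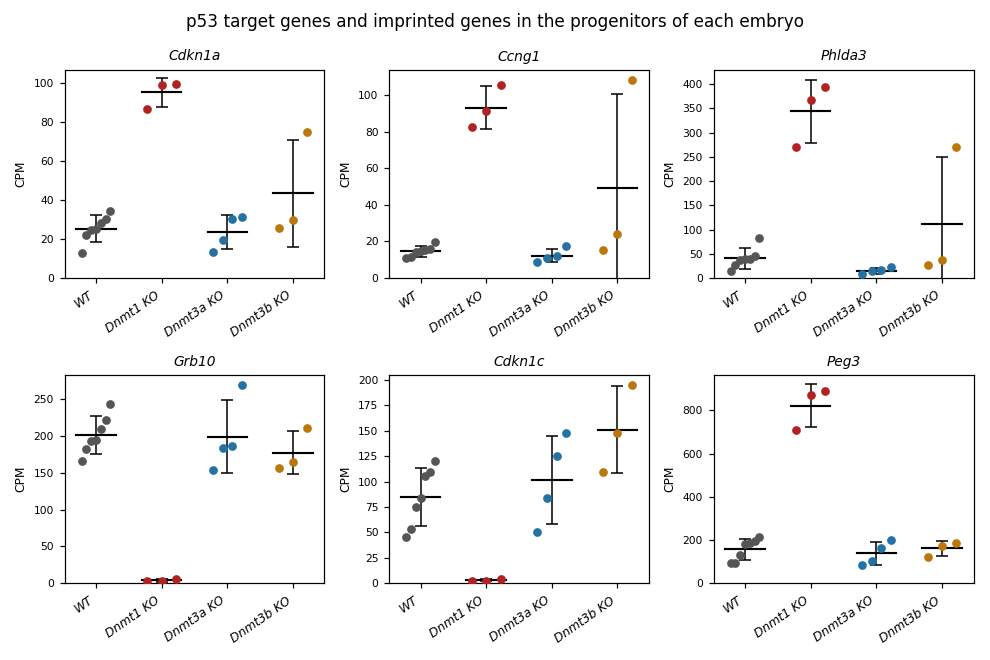
Level of 3 p53 target genes and 3 imprinted genes in the progenitors of each embryo, in CPM, with 1 point per embryo and the mean and SD as a line and bar. In the p53 targets the 3 Dnmt1 KO embryos and 1 Dnmt3b KO embryo, Dnmt3b KO 12, are the highest points, whereas in Grb10, Cdkn1c and Peg3 the Dnmt1 KO embryos are apart from all others.

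Germline genes, which are active in germ cells and methylated in somatic cells, were called higher in large part in Dnmt1 KO and Dnmt3b KO and in few cases in Dnmt3a KO. Of 31 listed genes 21 passed the low-count filter, most of them through the KO embryos in which they were high, so that their share of calls is not support for the list. In Dnmt1 KO 19 rose, in Dnmt3b KO 13 and in Dnmt3a KO 1, Slc25a31, besides Hsf2bp, which is not on the list. The summed level of the list was 15.3 to 23.4 CPM in WT, 369 to 415 in Dnmt1 KO, 111 to 433 in Dnmt3b KO and 30.8 to 55.0 in Dnmt3a KO, and no KO group overlapped WT. The genes called higher in all 3 KO groups were Slc25a31, Hsf2bp and Xlr3b, and the Dnmt3a KO call of each was lost on the mouse-only reference (edgeR adjusted p = 0.060, 0.026 and 0.027).

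The promoters of 4 of these genes are given because CpG methylation is the mark the 3 enzymes make. RefSeq sequence was taken from the 250 bases before the start of each gene (build GRCm38.p6, written 5′ to 3′ on the strand of the gene), and the capitals mark CpG dinucleotides. Hsf2bp lies on the minus strand at chr17:32034509-32034758 with 14 CpG, Slc25a31 on the plus strand at chr3:40708621-40708870 with 18, Dazl on the minus strand at chr17:50293621-50293870 with 20, and Sycp1 on the minus strand at chr3:102936101-102936350 with 17.
Hsf2bp: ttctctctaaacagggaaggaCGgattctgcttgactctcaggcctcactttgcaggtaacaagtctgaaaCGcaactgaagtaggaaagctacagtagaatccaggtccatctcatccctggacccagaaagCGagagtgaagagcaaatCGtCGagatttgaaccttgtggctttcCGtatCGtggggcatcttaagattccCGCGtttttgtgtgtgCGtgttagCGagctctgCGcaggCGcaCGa
Slc25a31: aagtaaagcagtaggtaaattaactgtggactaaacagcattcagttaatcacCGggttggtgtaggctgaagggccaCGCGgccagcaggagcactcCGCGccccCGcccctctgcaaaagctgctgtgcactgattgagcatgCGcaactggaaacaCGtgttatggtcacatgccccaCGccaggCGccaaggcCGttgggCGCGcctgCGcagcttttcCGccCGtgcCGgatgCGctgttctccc
Dazl: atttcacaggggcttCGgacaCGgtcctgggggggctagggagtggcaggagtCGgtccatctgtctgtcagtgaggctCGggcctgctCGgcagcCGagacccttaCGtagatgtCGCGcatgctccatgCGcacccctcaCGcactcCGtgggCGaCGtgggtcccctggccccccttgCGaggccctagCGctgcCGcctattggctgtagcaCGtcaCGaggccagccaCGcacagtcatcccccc
Sycp1: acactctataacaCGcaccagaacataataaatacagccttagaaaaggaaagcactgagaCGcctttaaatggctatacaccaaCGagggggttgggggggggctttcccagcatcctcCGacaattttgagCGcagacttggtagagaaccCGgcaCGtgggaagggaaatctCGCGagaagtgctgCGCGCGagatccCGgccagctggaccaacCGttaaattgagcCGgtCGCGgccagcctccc

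The E-box CACGTG, which reads the same on both strands, stood 93 bases before the start in Slc25a31 and 94 in Sycp1 and was not found in the printed stretch of Hsf2bp or Dazl. Over windows of 300 bases that add the first 50 of the gene, CACGTG was present in 11 of 19 windows (57.9%) of the germline genes called in Dnmt1 KO, of which 16 of 19 matched by symbol, and in 15 of 56 windows (26.8%) of the genes higher in Dnmt3b KO, of which 50 of 59 matched. It was in 9.37% of the windows of all genes higher in Dnmt1 KO, in 10.2% of those of the genes tested in members and in 7.15% of all 32851 windows. The median CpG count per window was 22 in the germline set, 15 in the Dnmt3b KO set and 13 in the Dnmt1 KO set, against 21 in the genes tested in members and 7 in all windows. Methylation itself was not measured in these libraries.

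Slc25a31, a germline ADP/ATP carrier of the mitochondrion, was at 12.3, 11.7 and 12.4 CPM in Dnmt1 KO 1, 2 and 3. It was at 20.4, 26.4 and 12.2 in Dnmt3b KO 11, 12 and 1+2, and at 2.87, 2.47, 1.18 and 2.73 in Dnmt3a KO 13, 14, 1 and 2. WT embryos lay between 0 and 0.533, below every KO embryo. The log2 fold changes were 6.07 ± 0.45, 6.68 ± 0.40 and 3.65 ± 0.50 in Dnmt1, Dnmt3b and Dnmt3a KO (edgeR adjusted p = 4.0e-08, 4.2e-09 and 0.0021), the last of which was lost without Dnmt3a KO 13 or 14 (edgeR adjusted p up to 0.018). Hsf2bp, a meiotic recombination factor, was likewise apart from WT, with 4.90 ± 1.09, 6.99 ± 2.61 and 2.83 ± 0.925 CPM in Dnmt1, Dnmt3b and Dnmt3a KO against 0.221 ± 0.196 in WT. Its Dnmt3a KO call (log2 fold change 3.45 ± 0.41) held in each fit that left out 1 embryo, and was lost with at least 2 UMIs of each gate gene (edgeR adjusted p = 0.031). Xlr3b, an X-linked gene, was at 12.9, 15.8, 12.6 and 19.1 CPM in Dnmt3a KO against 2.13 to 5.22 in WT, and it has near-identical copies, Xlr3a among them, from which the counting may not separate it.

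In Dnmt3b KO, 59 genes were higher and the only one lower was Ahcy. Ahcy, the enzyme that clears S-adenosylhomocysteine, the by-product of methylation, was at 9.02, 11.3 and 10.8 CPM in Dnmt3b KO 11, 12 and 1+2, against 20.5 to 30.8 in WT (log2 fold change -1.35 ± 0.14, edgeR adjusted p = 4.5e-06). It was at 27.7 ± 2.18 in Dnmt1 KO, within the WT range. Ahcy lies on the same chromosome as Dnmt3b but is not adjacent to it, and an effect of the altered locus on Ahcy was not tested. Rpl39l, a ribosomal protein paralog of the testis, was at 44.6, 96.7 and 24.5 CPM in Dnmt3b KO and 117, 128 and 168 in Dnmt1 KO, against at most 0.522 in WT. Sycp1, of the synaptonemal complex, was at 5.84, 11.1 and 4.94 CPM in Dnmt3b KO and 9.97 ± 2.96 in Dnmt1 KO, while in Dnmt3a KO it was found in 1 of 4 embryos, at 0.205. Ddx4, a germ cell RNA helicase, reached 8.20 ± 4.57 CPM in Dnmt3b KO and 7.32 ± 1.4 in Dnmt1 KO, against 0.490 ± 0.313 in WT. Rpl39l, Rpl10l and Tuba3b belong to families with close copies, and their counts are uncertain to that extent.

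The Dnmt3b KO embryos differed among themselves in the germline genes. Dazl, a translation regulator of germ cells, was at 103 CPM in Dnmt3b KO 12, 12.9 in Dnmt3b KO 11 and 0.950 in Dnmt3b KO 1+2, and in WT at most 0.112. Asz1 was at 19.5, 2.12 and 0.760 in the same order of embryos. Tex13b was at 16.4 CPM in Dnmt3b KO 12 and below 1 in the other Dnmt3b KO samples, and was not called. The number of calls fell from 60 to 41 without Dnmt3b KO 12, which is also the library with a low Dnmt3a level. Sohlh2, a germ cell factor at least 91.5-fold higher than in WT by its mean, lost its call without Dnmt3b KO 12 and in 4 other such fits (edgeR adjusted p up to 0.034, without Dnmt1 KO 1 or 2, WT 3 or WT 4), and Tuba3b without WT 4 (edgeR adjusted p = 0.013). Without both Dnmt3b KO 11 and 12, which leaves 1 Dnmt3b KO sample assumed to vary like the other groups, 11 genes were called. Slc25a31, Rpl39l, Hsf2bp, Sycp1 and Hormad1 were among them, and of the 15 named genes called in Dnmt3b KO 8 were lost, Ahcy, Asz1, Dazl, Ddx4, Rpl10l, Sohlh2, Tuba3b and Xlr3a.

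**Figure D5:**
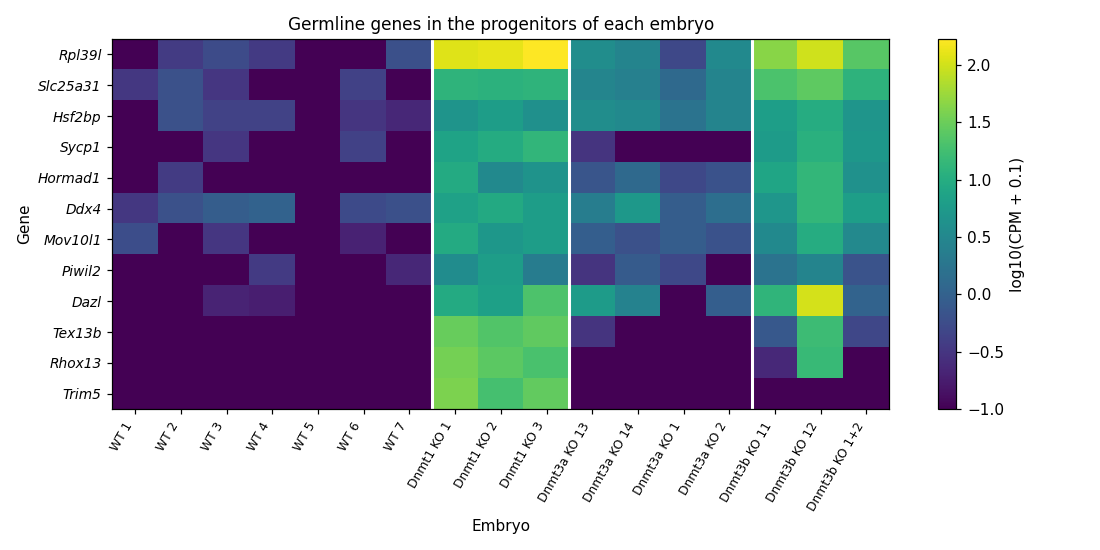
Level of 12 genes, all but Hsf2bp and Trim5 from the germline list, in the progenitors of each embryo. Values are log10 of CPM plus 0.1, with embryos in columns by genotype. All 12 are higher in the 3 Dnmt1 KO embryos than in WT, the top 7 rows in the Dnmt3b KO samples too, Dazl is highest in Dnmt3b KO 12, and Trim5 is seen in Dnmt1 KO only.

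A further set of genes, most of them germline or X-linked, was seen in Dnmt1 KO with no UMI in any WT member. Tex13b was at 30.2, 22.2 and 27.1 CPM, Rhox13 at 27.0 ± 8.05 and Gtsf1, a piRNA pathway protein, at 10.4 ± 1.81. They were at least 426-fold, 421-fold and 163-fold higher than WT on pooled counts and a floor of 3 counts over the 7 embryos. Trim5, a restriction factor, was at 38.4, 18.9 and 27.8 CPM and had no UMI in any member outside Dnmt1 KO, so it was at least 459-fold higher. Its call was lost with the Y-linked covariate (edgeR adjusted p = 0.028). AU022751, an X-linked gene, was at 7.85 ± 2.76 CPM in Dnmt1 KO and 6.31 ± 2.14 in Dnmt3b KO with no UMI in WT members, at least 128-fold and 98.7-fold higher. In Dnmt1 KO, Dazl was at 9.14, 6.67 and 20.8 CPM, and its call was lost without Dnmt1 KO 3 (edgeR adjusted p = 0.013). Rhox5, an X-linked homeobox gene of extraembryonic tissue, was at 51.1 ± 37.7 CPM in Dnmt1 KO and 15.4 ± 20.1 in WT and was not called (edgeR adjusted p = 0.16). Apoe, Krt8, Ascl2 and Trap1a, which the study had named over many cell types of these embryos together with published CRISPR embryos not analysed here, were not called in the members of the 3 Dnmt1 KO embryos, with log2 fold changes of 1.21, 0.14, 1.17 and 2.15 (edgeR adjusted p = 0.10, 0.85, 0.059 and 0.030).

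In Dnmt3a KO progenitors 5 genes were called, the 3 shared ones above, Dnmt3a itself and Tsix. Tsix, the antisense partner of Xist on the X chromosome, was at 1.79 ± 0.729 CPM against 14 ± 6.51 in WT (edgeR adjusted p = 0.0092), and here the unequal sex of the groups cannot be told apart from genotype. An edgeR fit with the Y-linked level as a covariate called 10 genes. Within the libraries counted on the mouse reference alone, 2 Dnmt3a KO against 6 WT embryos, none of the 5 passed (0 calls by edgeR, with 786 genes at an unadjusted p under 0.05), and DESeq2 on all embryos called 21. The progenitor, signalling and neural lists had no called gene in Dnmt3a KO. Fgf8 was at 288 ± 88.6 CPM and Cdx4 at 337 ± 92.0 there, against 276 ± 83.3 and 362 ± 55.2 in WT, and in Dnmt3b KO at 246 ± 53.8 and 374 ± 79.8.

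The Dnmt1 KO differences were also set against those of presomitic and neural cells in the same embryos. Presomitic cells had a UMI of Tbx6 and Msgn1 and none of Noto (880 cells), and neural cells had Sox2 and Sox1 and none of Nkx1-2, T, Tbx6 or Noto (6273 cells), which may include brain as well as spinal cord. Dnmt1 KO 1, 2 and 3 supplied 27, 20 and 32 presomitic cells and 45, 28 and 38 neural cells. Over the 18 libraries Pou5f1 was found in 3.0% to 100% of neural cells, Epcam in 14.5% to 100% and Utf1 in 0.288% to 68.4%. The neural cells of the groups may therefore not be alike, which was not tested. The tested value was the difference between cell kinds within an embryo in log2(CPM + 2). The Dnmt1 KO effect differed between progenitors and presomitic cells in 219 of 7294 genes (3.0%), and between progenitors and neural cells in 924 of 7334 (12.6%), at a limma adjusted p under 0.05. The genes used to define the cell kinds are not results. In Dnmt3a KO no gene differed in either test (355 and 279 had an unadjusted limma p under 0.05, with 0 calls by limma). In Dnmt3b KO 1 gene differed from presomitic cells (0.0137%), Gm14226, and 0 from neural cells (0 calls by limma, 275 at an unadjusted p under 0.05).

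Cdh2 in presomitic cells was at 124 ± 17.0 CPM in WT and 114 ± 16.4 in Dnmt1 KO, whereas in progenitors it fell as given above (difference of the log2 effects -0.99 ± 0.12 SE, limma adjusted p = 9.4e-05). In neural cells Cdh2 fell further than in progenitors, from 119 ± 22.8 to 32.6 ± 2.90 CPM (0.67 ± 0.087). Ncam1 fell more in progenitors than in either other kind (-1.32 ± 0.19 against presomitic and -1.33 ± 0.19 against neural cells). Aldh1a2, the enzyme that makes retinoic acid, was at 35.5 ± 17.8 CPM in WT progenitors and 4.96 ± 2.51 in Dnmt1 KO ones, where edgeR did not call it. In presomitic cells Aldh1a2 was at 55.3 ± 32.4 and 96.0 ± 15.9 (-3.42 ± 0.51, limma adjusted p = 0.00067). Against neural cells its effect was not shown to differ (0.20 ± 0.52, limma adjusted p = 0.84). Cyp26a1 fell in progenitors and stood at 6.0 ± 2.29 CPM in WT and 33.8 ± 12.8 in Dnmt1 KO neural cells (-4.90 ± 0.43, limma adjusted p = 3.0e-06).

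Caudal genes differed from one or the other kind of cell. Hoxc8 was at 2.67 ± 1.83 CPM in WT neural cells, too low a level for a fall like that in progenitors to be seen there. In presomitic cells Hoxc8 was at 156 ± 43.4 CPM in WT and 10.9 ± 9.40 in Dnmt1 KO, and the effects were not shown to differ (-0.42 ± 0.16, limma adjusted p = 0.16). Hoxa9 fell more in progenitors than in presomitic cells (-1.24 ± 0.28), and Hoxb9 fell less (0.58 ± 0.15). Cdx1 lay higher in Dnmt1 KO progenitors relative to presomitic cells (0.62 ± 0.11, limma adjusted p = 0.0039), as did Sp5, Hoxb1 and Hoxb8. For Hoxb9, Cdx1, Sp5, Hoxb1, Hoxb8 and Fgf8 the difference from neural cells did not pass the test (limma adjusted p = 0.47, 0.065, 0.089, 0.27, 0.999 and 0.75). The Dnmt1 KO mean lay on the same side of the WT mean in all 3 kinds of cell for Grb10, Epcam, Cdh1, Peg3 and Phlda3. Of these, Grb10 fell slightly less in progenitors on this scale (0.70 ± 0.12 and 0.88 ± 0.19), while for the others the difference did not pass the test, with Epcam at 0.35 ± 0.49 and -0.67 ± 0.44. The count of differing genes against presomitic cells was 104 without Dnmt1 KO 2 and between 155 and 269 in the other fits that left out 1 sample.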

How the data were processed

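Mouse embryos at E8.5 were profiled by 10x Genomics 3' single-cell RNA sequencing, and the authors deposited UMI counts per gene and barcode made with Cell Ranger on mm10, some of them with a joint human and mouse reference. Per the file headers the counts are whole numbers and are not normalised. Human genes were left out, barcodes with at least 3000 mouse UMIs were kept, and the counts of members were summed per embryo. The members and lists were chosen with earlier results of these data known. Each library is 1 embryo, and litters are not given in the sources used here. Doublets were kept and their removal by Scrublet score was an alternative. Marked doublets made up 0% to 2.86% of Dnmt1 KO members and 9.18% to 15.5% of Dnmt3a KO members. They were 8.33% to 22.4% of members in Dnmt3b KO and 2.78% to 16.1% in WT. Among cells kept they were 1.25% to 3.31%, 5.67% to 9.77%, 5.19% to 8.50% and 1.67% to 7.39% in the same order of groups. With them removed edgeR called 633, 4 and 60 genes in Dnmt1, Dnmt3a and Dnmt3b KO.

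Sums were compared with edgeR 4.0.16 (TMM, filterByExpr, quasi-likelihood test, 1 fit over all groups, Benjamini-Hochberg adjustment) in R 4.3.3, with DESeq2 1.42.0 as an alternative. The difference between cell kinds used limma 3.58.1, with a mean of at least 10 CPM, and shares used the exact permutation test of scipy 1.17.1. Genes named were the targeted and gate genes, list members that were called or describe a list, genes the study named, the 20 most raised in WT members, and for each KO up to 8 called genes in each direction with the largest fold change whose embryos did not overlap WT, without Y-linked genes. Tsix and Gm14226 were chosen after their values were seen. In simulated Dnmt3a KO and WT embryos (11318 genes), edgeR recovered 72% of genes changed by 1 on the log2 scale and 100% of those changed by 2, and the limma difference test (11743 genes) 28% and 99%. Recovery by edgeR meant an adjusted p under 0.01 in the right direction, without the minimum fold change of a call. The median edgeR estimate for a change of 1 was 0.964, below that minimum. Changed genes were above 20 CPM and all had 1 fixed dispersion, so lower genes were not covered. RefSeq promoters of GRCm38.p6 were matched by symbol. The alternatives are given in the closing section. Some results are not reported here.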

Additional observations from a re-analysis of the deposited data

Results flagged for a closer look

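Single embryos far from the rest of their group were seen in 21 of 200 sets of values, each a named gene or a share of members in WT or Dnmt3a KO, where chance gives about 1 in 20. The levels are CPM in members. WT 1 had Hoxc9 at 138, and its Epcam (35) and Peg10 (15.8) were low. WT 7 had high Pou5f1 (88.5), Utf1 (3.52), Ifitm3 (53.1) and Dnd1 (6.78), from the lists of epiblast and germ cell genes. WT 6 had high Rhox5 (57.1), Apoe (385) and Trap1a (34.5), from the list of extraembryonic ectoderm markers. Hormad1 in WT 2 (0.266), Asz1 and Tuba3b in WT 4 (0.0842 each) and Msgn1 in WT 4 (0.253) rest on 1 to 3 UMIs. Among Dnmt3a KO embryos, Dnmt1 (148) and Hoxb9 (320) were high in Dnmt3a KO 14, Wnt8a (18.8) in Dnmt3a KO 2 and Perp (5.33) in Dnmt3a KO 13, where AU022751, Sycp1 and Tex13b were each at 0.205 from 1 UMI.

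The Dnmt1 KO effect in progenitors differed from that in presomitic cells in 219 genes and from that in neural cells in 924, and the Dnmt3b KO effect differed from presomitic cells in 1. In log2(CPM + 2), the effect was lower in progenitors for Aldh1a2 (-3.42), Lix1 (-1.74), Dazl (-1.55), Cyp26a1 (-1.41), Ncam1 (-1.32), Hoxa9 (-1.24), Cdh2 (-0.99) and Fgf8 (-0.59). It was higher for Sp5 (0.81), Grb10 (0.70), Hoxb1 (0.64), Cdx1 (0.62), Hoxb9 (0.58) and Hoxb8 (0.48). Each of these passed limma's test of the difference at an adjusted p under 0.05.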

How the results depend on the processing

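No result reversed. Without WT 1 and 2 the share differed by -1.09, -1.42 and -0.93 (log2) in Dnmt1, Dnmt3a and Dnmt3b KO (exact permutation adjusted p = 0.036 each). These are the 2 WT embryos with the lowest shares, so that leaving them out separates the groups by itself and is no support for a difference. The settings without 2 embryos, at 10000 UMIs, with at least 2 UMIs and on the mouse-only reference were chosen after seeing the data. Leaving out 1 embryo gave -0.88 to -0.58, -1.21 to -0.88 and -0.72 to -0.23. Dnmt1 KO calls were 369 with at least 2 UMIs of each gate gene. Dnmt3a KO calls were 17 without the low-count filter, 17 without WT 1 and 2, 21 by DESeq2, 10 with the Y-linked covariate, 3 with at least 2 UMIs, and 0 both on the mouse-only reference and with members read at 10000 UMIs. Dnmt3b KO calls were 100 without the low-count filter, 104 with the Y-linked covariate, 10 with members read at 10000 UMIs and 11 without Dnmt3b KO 11 and 12. Leaving out 1 sample gave between 466 and 700, 2 to 14 (2 without Dnmt3a KO 13, 14 without WT 2) and 41 to 84 calls. Without the low-level filter 359 genes differed between progenitors and presomitic cells in Dnmt1 KO and 1398 between progenitors and neural cells, and 0 from presomitic cells in Dnmt3b KO, as with a prior of 0.5 CPM. Leaving out 1 sample gave 104 to 269 and 739 to 1012 in Dnmt1 KO, 0 to 1 against neural cells in Dnmt3a KO and 0 to 1 against presomitic cells in Dnmt3b KO. The cause of these changes was not tested.

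Embryos with the same replicate number had correlations of -0.074 to 0.17 over 10 pairs. The highest were Dnmt3a KO 2 with WT 2 (0.17) and Dnmt3a KO 1 with WT 1 (0.16). Pairs of different number reached 0.28 (Dnmt3a KO 14 with WT 4), so these values do not settle whether the numbers mark a batch. With the replicate number as a block, calls were 546, 1 and 6 in Dnmt1, Dnmt3a and Dnmt3b KO. That fit had only 3 residual degrees of freedom, so a lost call there may reflect low power. The paired mean difference in log2 share was -0.08, -0.38 and -0.28, over 3, 2 and 1 numbers shared with WT. With the Y-linked covariate the named Dnmt1 KO calls lost were Dnd1, Fgf15, Fgf17, Hes7, Hoxb6, Kit, Nkx6-1, Pax6, Sox1, Tfap2c, Trim5 and Usp29. Of the named called genes, 52 of 76, 0 of 4 and 2 of 15 were called in every setting in which they were tested. Some settings did not test all of them. With at least 2 UMIs of each gate gene, 71 of the Dnmt1 KO and 12 of the Dnmt3b KO genes were tested. With members read at 10000 UMIs, 5 of the Dnmt3b KO genes were. Calls on members read at 3000 UMIs were not run, since 1 embryo had enough members, and at 10000 UMIs too few Dnmt1 KO embryos did. With 29 to 43 members per Dnmt1 KO embryo, low genes there rest on few counts.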
